A study of Caenorhabditis elegans with 6 samples.

Results

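The genes described here are 8 lipases of *Caenorhabditis elegans*, 6 assigned to the lysosome (*lipl-1*, *lipl-2*, *lipl-3*, *lipl-4*, *lipl-5* and *lipl-7*) and 2 that act on fat droplets (*atgl-1* and *hosl-1*), out of 17682 genes in the deposited tables. They were chosen by name, and all 8 symbols were matched to sequence names of the tables. Expression was measured in whole worms by 3′-end enriched RNA-seq, in 3 libraries upon *unc-62* RNAi and 3 libraries upon empty vector (control) RNAi. All worms were hermaphrodites that carry the alleles fem-15(b26);spe-9(hc88) (strain TJ1060) and produce no progeny after development at 25°C. Each of 3 batches of about 10000 worms was divided on day 1 of adulthood, kept on its RNAi bacteria for 3 days at 20°C, and harvested whole on day 4, so each library pools many animals. RNAi was given to the whole animal, and no tissue was targeted.

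A triglyceride can be broken down by either of these routes. Neutral lipases at the surface of the fat droplet act in sequence, with ATGL-1, the worm form of adipose triglyceride lipase, taking the first fatty acid, and HOSL-1 resembling mammalian hormone-sensitive lipase. Acid lipases of the lysosome instead digest lipid delivered to that organelle, and several *lipl* genes are known to be induced by fasting, when the transcription factor HLH-30 (related to mammalian TFEB) takes the place of the repressor MXL-3 at their promoters. In *C. elegans* the intestine is the main fat store, and LIPL-4 is known there for a lysosomal lipid signal, carried by the lipid-binding protein LBP-8, that extends lifespan when the enzyme is overproduced.

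The libraries held between 15188765 and 22868980 uniquely mapped reads, as inferred from the deposited RPM. Values are RPM, the reads of a gene scaled to a common total of uniquely mapped reads. Genes with at least 10 reads in all 3 libraries of either group were tested (7333 genes) with limma on log2(RPM + 0.05) with the replicate number as a block, and were called at an adjusted p (Benjamini-Hochberg) under 0.1. The targeted gene, *unc-62*, had 17, 39 and 25 reads in *unc-62* RNAi replicates 1, 2 and 3, against 27, 31 and 26 reads in control RNAi, and limma did not call it (log2 fold change -0.27, adjusted p = 0.75), so the *unc-62* reads do not part the libraries. The yolk protein gene *vit-6* does, at 1526 to 2819 RPM upon *unc-62* RNAi, against 16837 to 26637 RPM in control RNAi. Each treatment filled a sequencing lane of its own, so lane and treatment cannot be told apart. Fold changes of the tested genes spread more widely in replicate 3 (SD 1.23 on the log2 scale) than in replicates 1 (0.66) and 2 (0.70). Markers of intestine, muscle, hypodermis, neurons and germline were all present.

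The 8 lipases lay at very different read levels, and *lipl-5* held most of their reads. Its level was 88.3 ± 28.9 RPM upon *unc-62* RNAi and 108 ± 41.4 RPM in control RNAi (SD, n = 3 each), 28.3 and 47.1 times the level of *lipl-2*, which came next in both groups. After *lipl-2* followed *atgl-1*, *lipl-1* and *hosl-1*, in that order in both groups. The last 3 genes, *lipl-7*, *lipl-3* and *lipl-4*, stood in this order upon *unc-62* RNAi, whereas *lipl-3* was above *lipl-7* in control RNAi. Upon *unc-62* RNAi the ranges of *atgl-1* and *lipl-1*, of *lipl-1* and *hosl-1*, and of *lipl-7* and *lipl-3* overlapped across libraries. Within each of these libraries *atgl-1* was still above *lipl-1*, and *lipl-1* above *hosl-1*. *lipl-7* was above *lipl-3* except in replicate 3, where they were equal. In control RNAi the ranges of all neighbours below *lipl-5* overlapped. Of these neighbours, only *hosl-1* and *lipl-3* kept their order in every control library. RPM is not divided by transcript length here because the reads come from the 3′ ends of transcripts, and reads shared between similar *lipl* genes were left out by unique mapping, so the order is one of uniquely mapped reads. Among the genes with a read in any library, *lipl-5* stood at percentile 96.3 of mean RPM, *lipl-2* at 72.8 and *lipl-4* at 19.7.

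**Figure D1:**
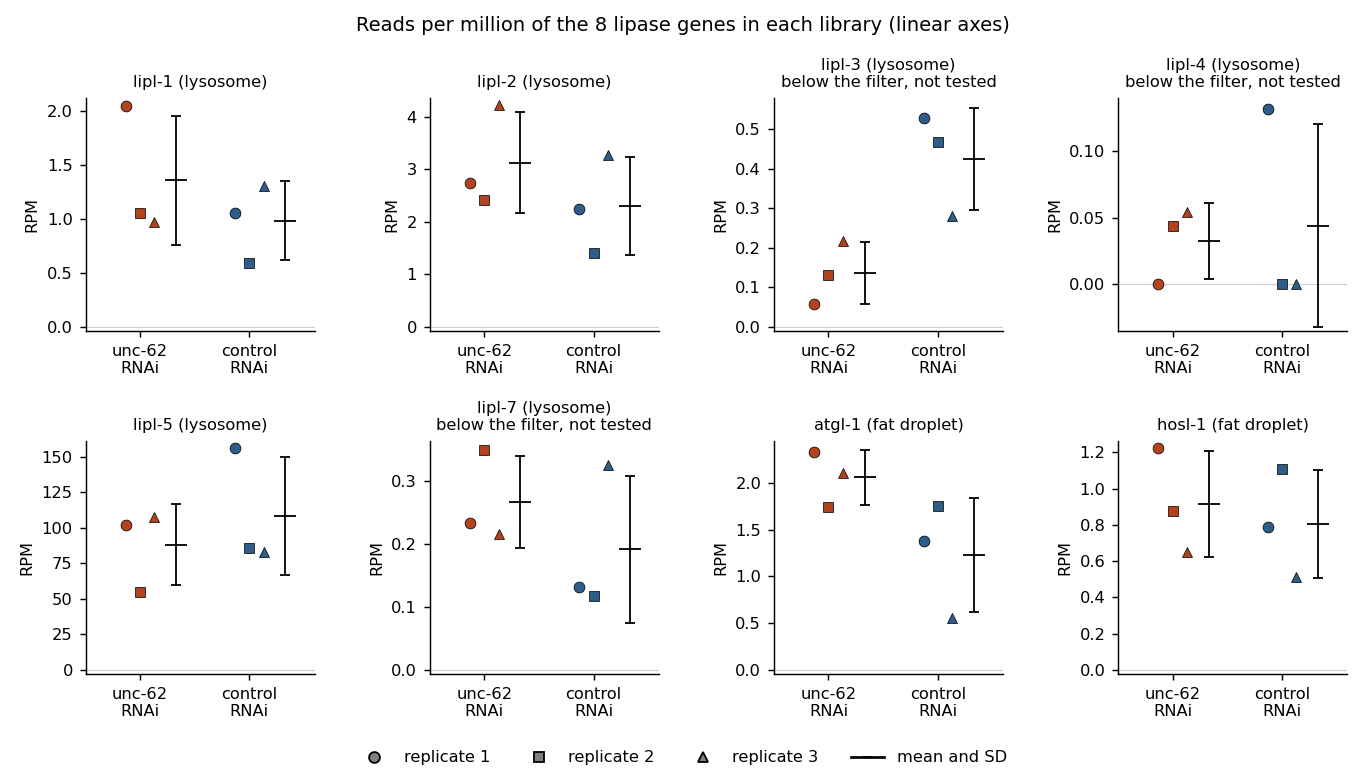
RPM (vertical axes, linear, each with its own scale) of the 8 lipases in the 3 *unc-62* RNAi libraries (left, red) and the 3 control RNAi libraries (right, blue), with the mean and SD beside each group. *lipl-3* is the only gene whose groups do not overlap, and *lipl-5* is the only one above 5 RPM.

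Of the 8 lipases, 5 passed the filter on low reads (*lipl-1*, *lipl-2*, *lipl-5*, *atgl-1* and *hosl-1*) and 3 did not (*lipl-3*, *lipl-4* and *lipl-7*). None of the 5 was called by limma, with adjusted p between 0.47 and 0.86 and 0 genes at an unadjusted p under 0.05, and edgeR and DESeq2 on the recovered reads called 0 of them as well. Over all tested genes limma called 1.31%, 0.818% as lower, and gave 13.3% an unadjusted p under 0.05, and DESeq2 called 4.01%, so a list of this length would seldom hold a called gene. The log2 fold change was above 0 for 4 of the 5 genes, with a median of 0.41, against a median of 0.04 over the 7333 tested genes, of which 54.1% were above 0. The libraries are of whole worms, so a change in a tissue's share of the mRNA and a change of the gene within that tissue cannot be told apart.

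**Figure D2:**
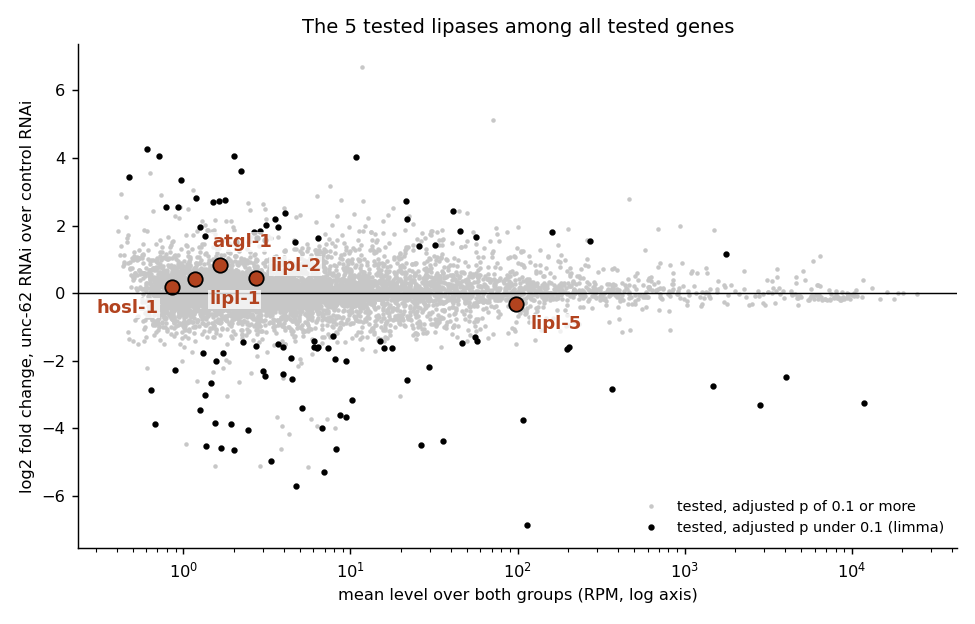
Log2 fold change, *unc-62* RNAi over control RNAi (vertical axis), against mean level in RPM (horizontal axis, logarithmic) for the 7333 tested genes, with genes called by limma in black and the 5 tested lipases as labelled red points. The lipases lie within the grey cloud, between -0.32 and 0.83, and 4 of the 5 lie near the low end of the level axis.

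*lipl-5* (ZK6.7), a lysosomal lipase and the only lipase of the set with many reads, had 102, 55.1 and 108 RPM in *unc-62* RNAi replicates 1, 2 and 3, against 156, 85.7 and 83.0 RPM in control RNAi. The highest library was control replicate 1 and the lowest *unc-62* RNAi replicate 2, and the groups overlapped. The log2 fold change was -0.32 (standard error 0.29, 95% interval -1.05 to 0.42, adjusted p = 0.71 from limma). Replicates 1 and 2 shared a direction, at -0.63 and -0.71, and replicate 3 had the opposite one, at 0.40. Without replicate 3, limma called *lipl-5* lower at a log2 fold change of -0.65 (adjusted p = 0.0087), in a fit with 1 residual degree of freedom that called 15.4% of all genes, and 9.3% as lower. Without replicate 1 the value was -0.14 and without replicate 2 it was -0.12. Counting error was small for this gene, at 2.45% and 2.31% of the mean for a library of *unc-62* RNAi and of control RNAi, while libraries differed by 32.7% and 38.3% (SD over mean), so the spread between libraries and not depth limits what can be said of it.

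The tables list 2 transcripts of *lipl-5*, and the level above is that of ZK6.7a. A read can be listed under both, and how many are shared was not tested. The reads on ZK6.7b came to 80.7%, 79.8% and 63.5% of those on ZK6.7a in *unc-62* RNAi replicates 1, 2 and 3, against 75.6%, 74.4% and 82.9% in control RNAi. *unc-62* RNAi replicate 3 was the lowest of the 6 libraries, and the groups overlapped.

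*lipl-2* (F46B6.8), another lysosomal lipase, was the only tested lipase whose fold change had the same direction in all 3 replicates. Its level was 2.74, 2.41 and 4.22 RPM (47, 55 and 78 reads) upon *unc-62* RNAi, against 2.24, 1.40 and 3.26 RPM (34, 24 and 70 reads) in control RNAi. Replicate 3 was the highest of its group on both treatments, and the groups overlapped. The log2 fold change was 0.27, 0.68 and 0.39 in replicates 1, 2 and 3, and 0.45 over the 3 (standard error 0.21, 95% interval -0.09 to 0.98), which limma did not call (adjusted p = 0.47). Of all tested genes 16.4% were above 0 in all 3 replicates and 20.0% had an unadjusted p under 0.1 in limma, as *lipl-2* and *atgl-1* had.

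*lipl-1* (F54F3.3), known for its induction by fasting, had 2.04, 1.05 and 0.973 RPM (35, 24 and 18 reads) upon *unc-62* RNAi, against 1.05, 0.585 and 1.30 RPM (16, 10 and 28 reads) in control RNAi. It was higher upon *unc-62* RNAi in replicates 1 and 2 and lower in replicate 3, with log2 fold changes of 0.91, 0.73 and -0.39. The estimate over the 3 was 0.41 (standard error 0.34, 95% interval -0.46 to 1.29, adjusted p = 0.69 from limma). Without replicate 3 it was 0.84 (adjusted p = 0.15 from limma), and without replicates 1 and 2 in turn it was 0.18 and 0.26.

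**Figure D3:**
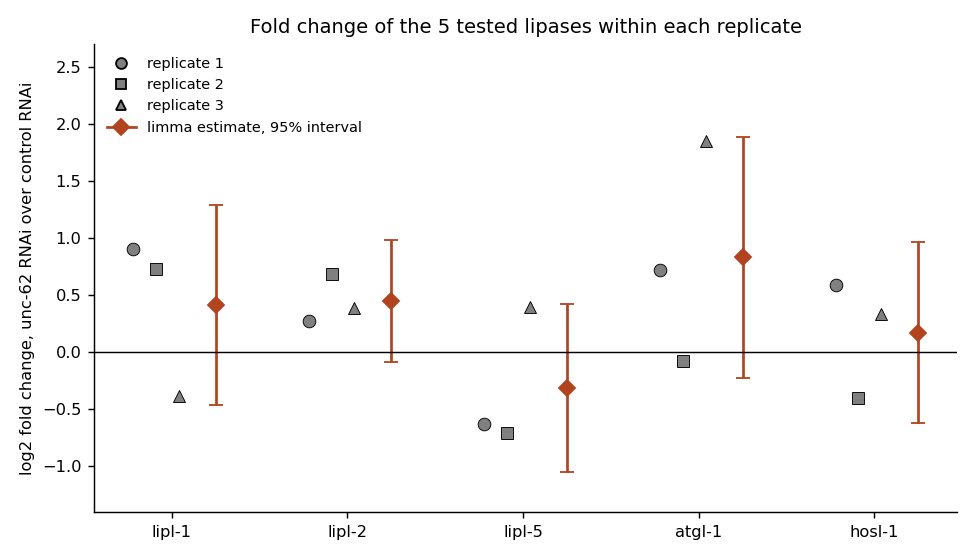
Log2 fold change, *unc-62* RNAi over control RNAi (vertical axis), of the 5 tested lipases within replicates 1, 2 and 3 (grey symbols) and as estimated by limma with its 95% interval (red). All 5 intervals cover 0, and the 3 replicates of *lipl-2* are the only ones that share a direction.

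*lipl-3* (R11G11.14), which like *lipl-1* is induced by fasting, was below the filter and had fewer reads upon *unc-62* RNAi. It had 1, 3 and 4 reads (0.0584, 0.131 and 0.216 RPM) in *unc-62* RNAi replicates 1, 2 and 3, against 8, 8 and 6 reads (0.527, 0.468 and 0.280 RPM) in control RNAi. Every *unc-62* RNAi library was lower than every control RNAi library, and a two-sided exact permutation test gave p = 0.1, below which a design of 3 against 3 cannot go. Of the genes below the filter with 20 to 40 reads in all, as *lipl-3* has, 6.69% also lay lower without overlap, and 6.93% of the tested genes did. The pooled reads gave an RPM ratio of 0.334 (95% interval 0.129 to 0.779 from counting error alone). In a limma fit of all genes with any read its log2 fold change was -1.42 (standard error 0.55) and was not called (adjusted p = 0.44). In the WBcel235 annotation the span of *lipl-3* overlaps that of *srw-107* on the same strand, so some reads may not be assigned with certainty. Whether the overlap reaches an exon or the 3′ end, where these reads fall, was not checked.

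*lipl-4* (K04A8.5), the lipase tied to longevity signalling, was at the limit of detection. It had 0, 1 and 1 reads upon *unc-62* RNAi, against 2, 0 and 0 reads in control RNAi. A count of 0 allows up to 3 reads, or 0.175 RPM in *unc-62* RNAi replicate 1, 0.175 RPM in control replicate 2 and 0.140 RPM in control replicate 3, so a difference between the treatments was not detectable at this depth. *lipl-7* (F01G10.7) had 4, 8 and 4 reads upon *unc-62* RNAi, against 2, 2 and 7 reads in control RNAi. The pooled ratio of its RPM was 1.34 with a 95% interval of 0.583 to 3.19 from counting error alone, and the groups overlapped.

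Of the fat-droplet lipases, *atgl-1* had the largest log2 fold change of the 5 tested lipases. *atgl-1* (C05D11.7) had 2.34, 1.75 and 2.11 RPM (40, 40 and 39 reads) upon *unc-62* RNAi, against 1.38, 1.75 and 0.559 RPM (21, 30 and 12 reads) in control RNAi. The *unc-62* RNAi libraries lay close together, with a spread of 14.3% of the mean against 15.9% from counting error, whereas the control RNAi libraries spread by 49.6%, control replicate 3 being the lowest. The groups met at replicate 2, where *unc-62* RNAi and control RNAi were nearly equal. The log2 fold change was 0.72, -0.08 and 1.85 in replicates 1, 2 and 3, and 0.83 over the 3 (standard error 0.41, 95% interval -0.23 to 1.89), which limma did not call (adjusted p = 0.5). Leaving out replicate 3 lowered it to 0.34, and leaving out replicate 2 raised it to 1.29. The pooled reads gave an RPM ratio of 1.74 (95% interval 1.27 to 2.39 from counting error alone, without the spread between libraries). Of the 3 listed transcripts of *atgl-1*, C05D11.7b and C05D11.7a.1 had nearly equal reads in every library, and C05D11.7a.2 had between 0 and 2 reads. A read can be listed under more than 1 of them, and how many are shared was not tested.

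*hosl-1* (C46C11.1) had 1.23, 0.875 and 0.649 RPM (21, 20 and 12 reads) upon *unc-62* RNAi, against 0.790, 1.11 and 0.512 RPM (12, 19 and 11 reads) in control RNAi. The groups overlapped over most of their range, and replicate 3 was the lowest of both. The log2 fold change was 0.17 (standard error 0.31, 95% interval -0.62 to 0.97, adjusted p = 0.86 from limma), and it was below 0 in replicate 2 alone, at -0.40. Without replicate 1 the estimate was -0.020, so no direction can be given. The transcript C46C11.1b had between 0 and 4 reads in each library.

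**Figure D4:**
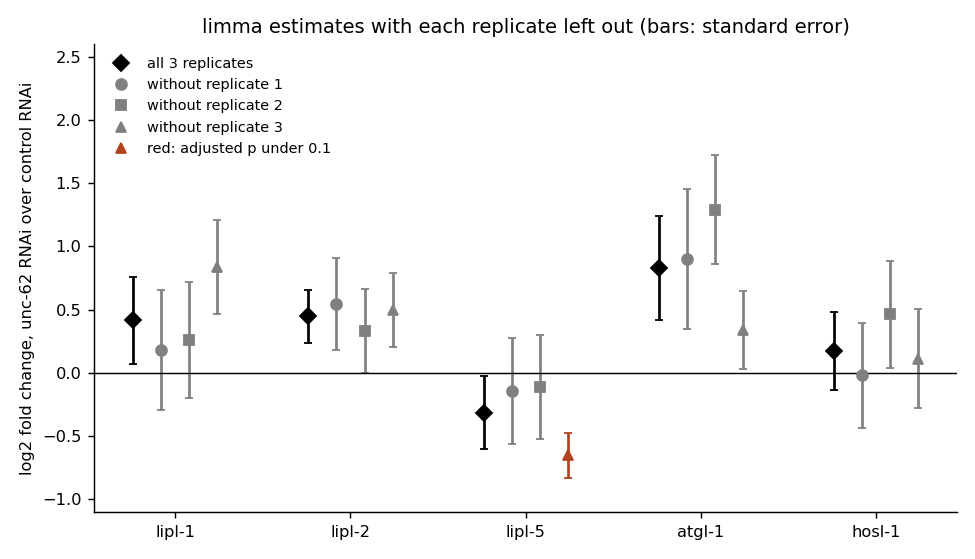
limma estimates of the log2 fold change, *unc-62* RNAi over control RNAi (vertical axis, bars are standard errors), of the 5 tested lipases with all 3 replicates and with replicates 1, 2 and 3 left out in turn. Red marks an adjusted p under 0.1, reached by *lipl-5* without replicate 3 at -0.65, and *hosl-1* changes sign without replicate 1.

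Since *lipl-5* carries most of the lipase reads, the summed level follows it. The 8 genes together had 111, 61.7 and 116 RPM in *unc-62* RNAi replicates 1, 2 and 3, against 162, 91.2 and 89.2 RPM in control RNAi, and the groups overlapped. *lipl-5* held 92.2%, 89.3% and 92.7% of these reads upon *unc-62* RNAi, against 96.1%, 94.0% and 93.0% in control RNAi. The 7 other lipases summed to 8.64, 6.60 and 8.43 RPM upon *unc-62* RNAi, against 6.25, 5.44 and 6.24 RPM in control RNAi. The *unc-62* RNAi libraries were thus all above the control RNAi libraries in the sum without *lipl-5*, narrowly, at 6.60 against 6.25 RPM where closest. They were all below them in the share of *lipl-5*, at 92.7% against 93.0% where closest. Both descriptions rest on the same reads and were not tested. Of all tested genes, 6.44% lay higher and 6.93% lower without overlap. The 2 fat-droplet lipases made up 3.56, 2.62 and 2.76 RPM of the sum without *lipl-5* upon *unc-62* RNAi, against 2.17, 2.87 and 1.07 RPM in control RNAi, which overlapped.

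Among the tissue markers in these whole worms, the summed level lay higher upon *unc-62* RNAi without overlap for intestine, and lower for sperm. For body wall muscle, hypodermis, neurons, and oocytes and germline the summed levels of the groups overlapped. The part of all these markers in the lipase values was not tested. Of 10 intestinal markers 9 were matched and tested, and limma called 0 of the 9, with 3 at an unadjusted p under 0.05 (13.3% of all tested genes). Their log2 fold change was above 0 for 7 and below 0 for 2 (54.1% of all tested genes were above 0), with a median of 0.39. They summed to between 10076 and 12408 RPM upon *unc-62* RNAi, against 7539 to 8347 RPM in control RNAi, and none of them was at 0 in all libraries. Nearly all of this sum came from *mtl-2*, *cpr-1* and *asp-1*, and *asp-1*, an aspartic protease gene, had the highest log2 fold change of the list, at 1.99 (adjusted p = 0.19 from limma). *ges-1*, the gut esterase, had 2.69, 1.22 and 1.08 RPM upon *unc-62* RNAi, against 1.19, 0.292 and 0.932 RPM in control RNAi (adjusted p = 0.33 from limma). The markers of body wall muscle, sperm and hypodermis had medians below 0. Of 8 tested markers of body wall muscle 6 were below 0 (median -0.46) and limma called 0, with 3 at an unadjusted p under 0.05, and of 3 tested sperm markers all 3 were below 0 (median -1.36), also with 0 called and 3 at that p. Of 4 tested hypodermal markers 3 were below 0 (median -1.75), all 3 at an unadjusted p under 0.05. These, *col-19*, *rol-6* and *dpy-13*, are all cuticle collagen genes. The other tested marker, *lin-26*, was above 0, at 0.37 (standard error 0.41). limma called *rol-6* lower at a log2 fold change of -2.64 (adjusted p = 0.081), as it did 0.818% of all tested genes. The paper reports many collagen genes lowered upon *unc-62* RNAi, so these markers do not stand for the tissue as a whole. It also reports from these libraries a broad rise of intestinal genes, so the intestinal markers do not measure the amount of intestine. The 7 tested markers of oocytes and germline had a median of 0.00, and the 3 of neurons one of -0.04, with 0 called. At an unadjusted p under 0.05 were 1 of the neuronal markers and 0 of those of oocytes and germline.

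The tested lipases did not follow one common course over the 6 libraries. Pearson correlations of log2(RPM + 0.05) between them ran from -0.68 (*lipl-2* with *hosl-1*) to 0.71 (*atgl-1* with *hosl-1*), and for *lipl-1* with *lipl-2* the value was 0.49. These are descriptions over 6 libraries, which fall into 2 treatments, each in a lane of its own, and 3 replicates. The next values are the highest among all tested genes over only 6 libraries, so they are high by selection and were not tested. For each lipase the genes most like it were sought among all tested genes. They were *Y110A2AM.4* (0.989), *tag-321* (0.989) and *idha-1* (0.988), a subunit of mitochondrial isocitrate dehydrogenase, for *lipl-5*. For *atgl-1* they were *K02F3.9* (0.998), *hsp-25* (0.987), a small heat shock protein gene, and *xtr-1* (0.984). For *hosl-1* they were *emc-1* (0.987), *rme-2* (0.982), the yolk receptor gene, and *W06H8.5* (0.968). For *lipl-1* they were *skpo-1* (0.988), *C27H6.9* (0.985) and *figo-1* (0.978), and for *lipl-2* *nssp-41* (0.992), *kbp-3* (0.990) and *Y34D9A.3* (0.986).

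Other genes of the fat droplet and of triglyceride synthesis were described from a list of 11, of which 10 were tested. limma called 0 of the 10, with 1 at an unadjusted p under 0.05 (13.3% of all tested genes), and the median log2 fold change was 0.08, with 7 genes above 0 and 3 below. *lid-1*, whose product binds and activates ATGL-1, had 2.51, 1.36 and 1.41 RPM upon *unc-62* RNAi, against 1.58 to 1.91 RPM in control RNAi, and its log2 fold change was -0.06 (standard error 0.25, adjusted p = 0.96 from limma). *lid-1* thus overlapped between the groups, as *atgl-1* did. *dgat-2*, which encodes an enzyme of the last step of triglyceride synthesis, was the only gene of this list whose groups did not overlap, and it is named for that after its values were seen. It had 3.50, 2.45 and 2.97 RPM upon *unc-62* RNAi, against 1.38, 2.05 and 1.63 RPM in control RNAi (log2 fold change 0.78, standard error 0.28, adjusted p = 0.34 from limma), and 6.44% of all tested genes lay higher without overlap. The extremes of the list were *fitm-2*, a gene of fat droplet formation, at 1.25 (standard error 1.27) and *lpin-1*, encoding the phosphatidate phosphatase lipin, at -0.60 (standard error 0.24, adjusted p = 0.40 from limma). *fitm-2* had 15.8, 3.50 and 38.9 RPM upon *unc-62* RNAi, against 13.8, 9.59 and 1.12 RPM in control RNAi, so replicate 3 set its value.

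**Figure D5:**
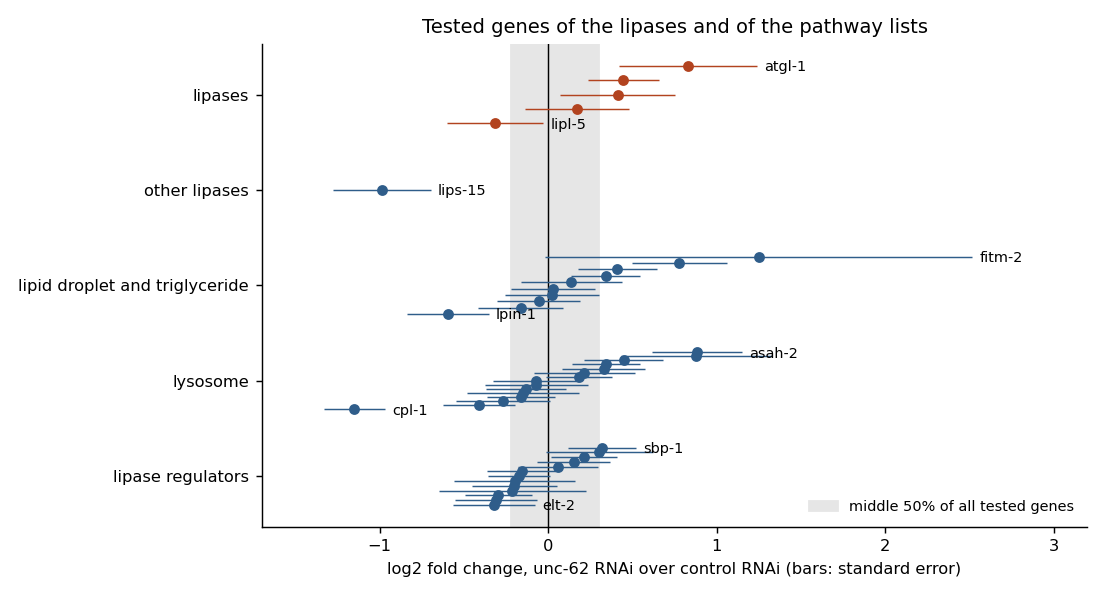
Log2 fold change, *unc-62* RNAi over control RNAi (horizontal axis, bars are standard errors), of the 5 tested lipases (red) and of the tested genes of the other lists (blue), with the highest and lowest of each list named and the middle 50% of all tested genes in grey. limma called none of these genes, and *cpl-1* and *lips-15* lie lowest.

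Of 17 genes that regulate the lipases or carry their signals, 13 were tested, and limma called 0 of them, with 0 at an unadjusted p under 0.05. Their median log2 fold change was -0.17, with 5 genes above 0 and 8 below. *hlh-30*, whose product activates lysosomal lipase genes on fasting, had 6.25, 5.82 and 5.89 RPM upon *unc-62* RNAi, against 7.31, 5.32 and 7.27 RPM in control RNAi (log2 fold change -0.16, standard error 0.20, adjusted p = 0.80 from limma). Its repressing counterpart *mxl-3* was below the filter, with 5, 4 and 7 reads upon *unc-62* RNAi and 4, 5 and 2 reads in control RNAi. *lbp-8*, which encodes the carrier of the LIPL-4 signal, was also below it, with 7, 11 and 3 reads (0.409, 0.481 and 0.162 RPM) upon *unc-62* RNAi, against 1, 4 and 1 reads (0.0658, 0.234 and 0.0466 RPM) in control RNAi, which overlapped. The extremes were *sbp-1*, the worm SREBP gene of fat synthesis, at 0.32 (adjusted p = 0.62 from limma) and *elt-2*, the GATA factor gene of the intestine, at -0.32 (adjusted p = 0.68 from limma). *sbp-1* was the only tested gene of this list whose groups did not overlap, narrowly, at 45.83 against 45.76 RPM where closest. Of all tested genes 6.44% lay higher without overlap.

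Of 21 other lipase genes listed (further *lipl* genes, the *lips* genes and the fasting-induced *fil-1* and *fil-2*), 16 were matched to the tables, 3 of these had no read in any library, and 1 was tested. This was *lips-15*, at 0.409, 0.787 and 0.324 RPM upon *unc-62* RNAi, against 0.724, 1.34 and 0.932 RPM in control RNAi. It was lower in all 3 replicates, as 19.8% of the tested genes were (log2 fold change -0.99, standard error 0.29), the groups overlapped, and limma did not call it (adjusted p = 0.25).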

How the data were processed

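Poly(A)+ RNA (400 ng for a library) from whole day 4 adults was sequenced as 3′-end enriched libraries with reads of 36 bases. The authors mapped reads to WS215 with Bowtie 0.12.7 and deposited, for 25531 transcripts, a signal in RPM, the reads mapped uniquely to a transcript's sense strand scaled to the library's uniquely mapped reads. CASAVA 1.7.0 is also named in the submitters' processing notes. A read can be listed under several transcripts of a gene. The uniquely mapped reads of each library were inferred from its smallest RPM above 0, taken as the RPM of a lone read. Multiplied by these totals, 100.0% of 153186 values were whole within 0.01 of a read. Another 2 identifiers without a gene name had 0 reads.

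The transcript with the highest mean was kept for each gene. Symbols came from the RefSeq table of WBcel235 (16959 of 17682 genes), and genes overlapping a lipase were sought in the Ensembl annotation of that build, with no coordinate printed. Log2(RPM + 0.05) was fitted with limma 3.58.1 in R 4.3.3 as the main test, with RPM rescaled to reads on the tested genes by TMM, a variance trend and the replicate as a block. edgeR 4.0.16, on the recovered reads, called 101 genes, against 96 by limma, and DESeq2 1.42.0 was a further alternative. Exact tests and intervals used scipy 1.17.1, and intervals and limits from reads cover counting error only. The replicate was a block because the study divides each batch between the treatments and takes fold changes within replicates. The deviations of libraries with the same number correlated at 0.42, 0.20 and -0.18 in replicates 1, 2 and 3, so the values by themselves do not settle the pairing. The rank products of the study were not used here.

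The lipases, the gene lists and the tests were chosen with earlier results of these data known. Named genes are the 8 lipases, the 3 genes most like each tested lipase, the called genes and the extremes of each pathway list, *lid-1*, *hlh-30*, *mxl-3*, *lbp-8* and *unc-62*. *vit-6*, *ges-1*, *asp-1*, *mtl-2*, *cpr-1*, *rol-6*, *col-19*, *dpy-13*, *lin-26*, *dgat-2*, *fil-1*, *lips-16* and *srw-107* were added after values were seen.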

Additional observations from a re-analysis of the deposited data

How the results depend on the processing

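limma called 96 genes, 36 higher and 60 lower upon *unc-62* RNAi. With no replicate block it called 60 higher and 82 lower genes and 0 of the 5 lipases. With no filter on low reads it called 253 genes (96 higher and 157 lower), with a filter of 50 reads 63 (21 higher), and DESeq2 called 294 (102 higher and 192 lower). TMM with the uniquely mapped reads as library size, an alternative chosen after seeing the data, gave 42 higher and 84 lower genes. Leaving out replicates 1, 2 and 3 in turn gave between 0 and 1183 genes, between 0 and 467 higher and between 0 and 716 lower. The 0 is limma's count without replicate 1, where 554 genes had an unadjusted p under 0.05. The lipases called numbered 0 or 1, the 1 being *lipl-5* without replicate 3 (-0.65), and 0 in every other alternative. *hosl-1* ran from -0.020 without replicate 1 to 0.46 without replicate 2. The other 4 tested lipases kept their direction in every alternative that gave them a value. With a filter of 50 reads, *lipl-5* alone was tested. The sum over transcripts counts shared reads more than once. Depth limits *lipl-3*, *lipl-4* and *lipl-7*, and the spread between libraries limits *lipl-5*.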

Other observations

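The other genes of the lysosome were described from a list of 27, of which 15 were tested and limma called 0, with 2 at an unadjusted p under 0.05, a share near the 13.3% of all tested genes. The median log2 fold change was -0.07, with 7 genes above 0 and 8 below. The lowest was *cpl-1*, which encodes the protease cathepsin L, at 263, 241 and 298 RPM upon *unc-62* RNAi, against 615, 579 and 549 RPM in control RNAi. Its groups did not overlap, and its log2 fold change of -1.15 (standard error 0.18) did not pass the threshold of 0.1 (adjusted p = 0.104 from limma). Of the 15 tested genes of this list, 2 lay lower and 1 higher without overlap, against 6.93% and 6.44% of all tested genes. The highest was *asah-2*, an acid ceramidase gene, at 2.04, 1.09 and 1.84 RPM upon *unc-62* RNAi, against 0.856, 0.760 and 0.885 RPM in control RNAi (log2 fold change 0.88, standard error 0.27, adjusted p = 0.25 from limma).

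Among the lipases below the filter, *lips-16* had 4, 0 and 85 reads in *unc-62* RNAi replicates 1, 2 and 3, against 2, 6 and 6 reads in control RNAi, so 1 library held most of its reads. *fil-1*, a lipase gene induced by fasting, was also highest there, with 1, 2 and 18 reads upon *unc-62* RNAi, against 3, 0 and 5 reads in control RNAi.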
